A study of Mus musculus with 2 samples.

Results

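The lysosome is the compartment in which cells break down proteins, sugars, sulfated polysaccharides and lipids. Its acid hydrolases do the cutting, membrane proteins such as LAMP1 and LAMP2 line its wall, and small non-enzymatic proteins hand lipids to the enzymes or carry them out. Many of these genes carry the E-box CACGTG near their start and are known targets of the transcription factors TFEB and TFE3. Folliculin, the product of Flcn, takes part in the nutrient-sensing step that keeps TFEB and TFE3 phosphorylated in the cytoplasm. The 50 genes described here are hydrolases and membrane proteins of the lysosome, picked by symbol from the 55488 gene rows of a mouse kidney single-cell RNA-seq data set. They comprise 14 proteases, 12 glycosidases, 5 sulfatases, 8 lipid enzymes and activators, 1 phosphatase, 8 membrane proteins and 2 soluble proteins that are not enzymes. All 50 symbols were found in both matrices.

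The library labelled Flcn KO came from newborn (postnatal day 0) Six2Cre; Flcn flox/flox mice. The animals it was set against, of the same age, carried the same Cre with 1 floxed and 1 intact allele (Six2Cre; Flcn flox/+) according to the series' design text, although their label reads Flcn WT. Six2-Cre acts in the progenitors of the nephron, so that podocytes, proximal tubule, loop of Henle and distal tubule descend from recombined cells. Ureteric bud, stroma, blood vessels and immune cells have other origins and stood in the same libraries as cells in which no recombination is expected. The tissue label reads embryonic kidney while the titles and the design text say newborn. There was 1 library of each genotype, and the number of kidneys in it is not given in the sources used here. A difference between the genotypes can therefore not be told apart from a difference between 2 libraries, and no test across animals was possible. Intervals given with ratios cover counting error only.

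The KO library held 5991 barcodes with 149679281 unique molecular identifiers (UMIs), and the WT library held 5572 barcodes with 147390790. After filters on depth, mitochondrial share and likely doublets, 4798 KO cells and 4000 WT cells were analysed, with a median of 18458 and 20968 UMIs per cell. Barcodes above the mitochondrial limit made up 11.6% of the KO library and 17.7% of the WT library. The libraries shared 5 barcode sequences. Cells were clustered without the 50 genes, and clusters were named from marker genes, so that the class names are rebuilt and not the authors'. The 6 classes of the Six2 lineage held 1296 KO cells and 1510 WT cells. The 5 classes outside it held 2911 KO cells and 1810 WT cells. A further 507 KO cells and 619 WT cells fell in clusters that could not be named.

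Flcn itself had 692 UMIs (12.6 CPM, UMIs scaled to 1e+06 nuclear-encoded UMIs) in the Six2 lineage of the KO library, against 968 UMIs (14.9 CPM) in that of the WT library. The ratio was 0.851 (95% interval 0.771 to 0.939). In the classes outside the lineage it was 1.02 (0.897 to 1.16), with 590 KO and 410 WT UMIs. UMIs come from transcript ends, and no label says which exons the loxP sites flank, so a recombined transcript could still be counted and the values are no check of recombination.

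The sequences around the gene start are shown first because the E-box is the letter pattern by which this gene group is known. Of the 12 genes with the highest KO over WT ratio in the Six2 lineage, 10 had a promoter in the RefSeq table (250 bases before to 50 after the start, build GRCm38.p6). Of these 10, 6 held CACGTG, against 9 of the other 34 lysosomal genes with a promoter and 8.09% of all genes with one. The 12 genes were picked by their ratio in the same data, and the difference was not tested. Windows of 100 bases free of annotated exons could be taken for 4 of the 6. The Dpp7 window is chr2:25356360-25356459 on the minus strand, and the Arsa window is chr15:89477426-89477525 on the minus strand, inside a transcript of the antisense gene C230037L18Rik. The Lamp1 window is chr8:13159061-13159160 on the plus strand, and the Lgmn window is chr12:102439093-102439192 on the minus strand, in an intron of a longer Lgmn transcript. Capitals mark the E-box, and each sequence runs 5′ to 3′ toward the gene.
Dpp7: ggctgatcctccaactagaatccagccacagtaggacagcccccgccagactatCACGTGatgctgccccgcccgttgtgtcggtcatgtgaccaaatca
Arsa: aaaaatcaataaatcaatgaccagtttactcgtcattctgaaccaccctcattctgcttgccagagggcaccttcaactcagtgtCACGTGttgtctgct
Lamp1: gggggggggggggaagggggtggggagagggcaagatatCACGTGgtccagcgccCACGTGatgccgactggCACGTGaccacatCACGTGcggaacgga
Lgmn: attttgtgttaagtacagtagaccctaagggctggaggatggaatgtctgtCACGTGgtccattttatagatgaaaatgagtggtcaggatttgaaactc
The Lamp1 window holds 4 copies within its last bases before the start, and the other 3 windows hold 1 each.

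In the pooled Six2 lineage, lysosomal transcripts made up a larger share of the RNA of KO cells than of WT cells. The 50 genes summed to 0.756% of nuclear-encoded UMIs in KO cells, against 0.451% in WT cells, a ratio of 1.68. Of 49 genes with at least 50 UMIs over both libraries, 47 had a ratio above 1. A gene is called higher here at a ratio of at least 1.5 and lower at its inverse, and 24 of the 49 were higher and 1 was lower. Over all 18769 genes that passed the same minimum, 6.56% were higher and 9.93% were lower. The median log2 ratio was 0.58 for the lysosomal genes and -0.05 for all genes tested. Ctss, a cysteine protease of immune cells, was the gene under the minimum, with 14 KO and 7 WT UMIs.

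The classes outside the lineage gave another picture. There the 50 genes summed to 0.290% of nuclear-encoded UMIs in KO cells and 0.279% in WT cells. All 50 passed the minimum, 0 were called higher and 0 lower, and 29 had a ratio above 1. Among all 19097 genes tested there, 5.23% were higher and 7.93% were lower. The median log2 ratio was 0.05 for the lysosomal genes and -0.02 for all genes. The pooled level depends on how many cells each class contributes, and immune cells, whose lysosomal share is the highest, were 2.63% of KO cells and 1.32% of WT cells.

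**Figure D1:**
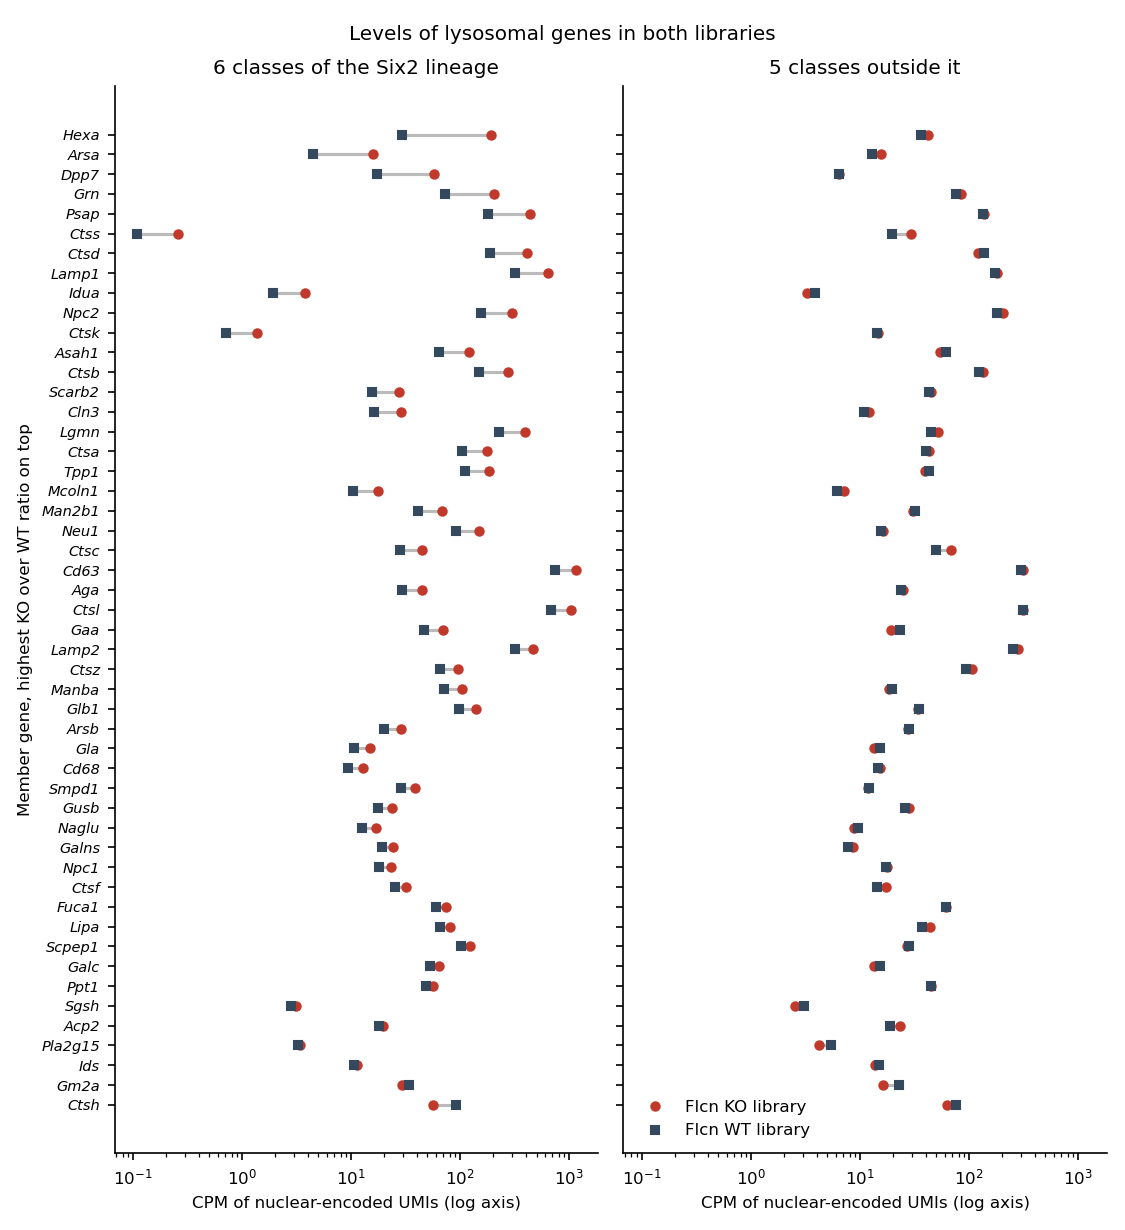
Levels of the 50 genes, in CPM of nuclear-encoded UMIs on a log axis, in the Flcn KO library (red circles) and the Flcn WT library (dark squares), in order of the ratio in the Six2 lineage. In the left panel, the 6 classes of the Six2 lineage, the KO circle lies right of the WT square for all genes but Gm2a and Ctsh, and in the right panel, the 5 classes outside it, most symbols lie on each other.

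Among the proteases, 9 of 13 tested were higher in the Six2 lineage and the median log2 ratio was 0.74. Dpp7, a dipeptidyl peptidase (chromosome 2, 25352276 to 25356359, minus strand, GRCm38), had 3151 UMIs (57.6 CPM) in KO cells and 1113 UMIs (17.1 CPM) in WT cells, a ratio of 3.37 (3.15 to 3.61). Ctsd, the aspartic protease cathepsin D, had 405 CPM in KO cells and 189 CPM in WT cells, a ratio of 2.15 (2.10 to 2.196). The cysteine protease Ctsb stood at 276 CPM in KO and 149 CPM in WT cells (ratio 1.86, 1.81 to 1.91). Lgmn, which cuts after asparagine, stood at 390 CPM in KO and 226 CPM in WT cells (1.73, 1.69 to 1.76). Ctsa, a carboxypeptidase that also protects the sialidase Neu1 and the galactosidase Glb1, had 177 CPM in KO cells, 104 CPM in WT cells and a ratio of 1.70 (1.65 to 1.76). Both Ctsb and Ctsa fell under the limit in 1 alternative setting each, with ratios of 1.454 for Ctsb at equal class weights and 1.450 for Ctsa in thinned cells. Outside the lineage the ratios of these 5 proteases ran between 0.891 (Ctsd) and 1.15 (Lgmn). An annotated gene on the same strand, Gm49369, overlaps Ctsd, so that reads of this pair may not be separated.

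Ctsh, a cathepsin that acts mainly as an aminopeptidase, was the 1 gene called lower in the pooled lineage. It had 3082 UMIs (56.3 CPM) in KO cells and 5921 UMIs (90.8 CPM) in WT cells, a ratio of 0.620 (0.593 to 0.647). With the 6 classes weighted equally the ratio was 0.865, and at the finer clustering without the loop of Henle cluster of mostly KO cells it was 0.726, neither past the limit. The ratio was 0.432 in the loop of Henle, with 139 KO and 242 WT UMIs, and 0.536 in the proximal tubule, with 2472 KO and 5018 WT UMIs. In the distal tubule it was 0.884, and the interval (0.669 to 1.16) included 1. The level of Ctsh was higher in KO in the early nephron (29.9 CPM, against 26.9 CPM in WT). At low levels it was also higher in KO podocytes (6.14 and 5.79 CPM) and progenitors (2.78 and 1.61 CPM). Outside the lineage it was higher in KO ureteric bud and collecting duct (143 CPM, against 124 CPM in WT). Lower values of Ctsh were not restricted to the Six2 lineage: the ratio was 0.819 (0.781 to 0.859) in the pooled classes outside it, 0.841 (0.784 to 0.902) in endothelium and 0.303 (0.154 to 0.569) in mural cells, from 15 KO and 35 WT UMIs.

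All 12 glycosidases had ratios above 1, and 5 were called higher, with a median log2 ratio of 0.56. Hexa stood apart. It encodes the alpha subunit of beta-hexosaminidase, which clips the ganglioside GM2, and lies on chromosome 9 (59539540 to 59565109, plus strand). It had 10449 UMIs (191 CPM) in KO cells and 1902 UMIs (29.2 CPM) in WT cells, a ratio of 6.54 (6.23 to 6.87). In KO cells it was 61.1 CPM in nephron progenitors, 62.2 CPM in early nephron, 245 CPM in podocytes, 299 CPM in proximal tubule, 200 CPM in loop of Henle and 205 CPM in distal tubule. In WT cells its level lay between 15.6 CPM (early nephron) and 44.8 CPM (proximal tubule) over the 6 lineage classes. The immune class had 273 CPM in KO and 317 CPM in WT. Outside the lineage the ratio of Hexa was 1.16.

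The remaining glycosidases called higher were Idua, which acts on dermatan and heparan sulfate (ratio 1.95, 206 KO and 126 WT UMIs), the mannosidase Man2b1 (1.65), the sialidase Neu1 (1.63) and the glycoasparaginase Aga (1.52). The acid glucosidase Gaa lay just under the limit at 1.495 (1.42 to 1.57). Glb1, Gla, Manba, Gusb, Naglu and Fuca1 lay between 1.26 (Fuca1) and 1.45 (Manba). Glb1 is overlapped by Tmppe on the same strand.

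Of the 5 sulfatases, only Arsa was called higher. Arylsulfatase A, which removes sulfate from sulfatide, had 870 UMIs (15.9 CPM) in KO cells and 288 UMIs (4.42 CPM) in WT cells, a ratio of 3.597 (3.14 to 4.12). Arsb stood at 1.41 and Galns at 1.28, while the intervals of Ids (1.06, 0.949 to 1.18) and Sgsh (1.13, 0.913 to 1.40), both of the heparan sulfate pathway, included 1. The gap between Arsa and the rest was seen per class too: 5 of 6 lineage classes called Arsa higher, against 1 of 6 for Arsb, 0 of 6 for Galns and Ids, and 0 of the 3 in which Sgsh passed the minimum.

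Lipid enzymes and activators were also uneven, with 2 of 8 called higher and a median log2 ratio of 0.28. Psap, the precursor of the saposins that present sphingolipids to their hydrolases, had 438 CPM in KO cells and 179 CPM in WT cells, a ratio of 2.45 (2.39 to 2.50). The acid ceramidase Asah1 had 119 CPM in KO cells and 63.1 CPM in WT cells, a ratio of 1.89 (1.82 to 1.97). Smpd1, Lipa, Galc and Ppt1 lay between 1.14 (Ppt1) and 1.35 (Smpd1), and the interval of Pla2g15 included 1. Gm2a, the activator that hands GM2 to the hexosaminidase, had 29.0 CPM in KO and 33.8 CPM in WT cells, a ratio of 0.858 (0.804 to 0.915). Hexa and Gm2a, which serve the same reaction, thus had ratios on opposite sides of 1 in the pooled lineage. By class, Gm2a was lower in KO proximal tubule (51.8 CPM, against 71.7 CPM in WT) and distal tubule (18.3 and 23.3 CPM). In the other lineage classes its level was higher in KO, slightly so in progenitors and loop of Henle, and the highest ratio was 1.26, in the early nephron. Gm2a was low outside the lineage as well, at 0.700 (0.639 to 0.767). The phosphatase Acp2 had a ratio of 1.08, and its interval (0.997 to 1.18) included 1.

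All 8 membrane proteins had ratios above 1, and 5 were higher (Lamp1, Scarb2, Cln3, Mcoln1 and Cd63). Lamp1, the most used marker of the lysosomal wall, had 639 CPM in KO cells and 315 CPM in WT cells, a ratio of 2.03 (1.99 to 2.06). Lamp2 had 460 CPM in KO cells and 316 CPM in WT cells, a ratio of 1.46 (1.43 to 1.48). Scarb2, the carrier that brings beta-glucocerebrosidase to the lysosome, was at 1.76, Cln3 at 1.75 and the cation channel Mcoln1 at 1.67. Npc1, which exports cholesterol, was at 1.28 (1.18 to 1.38). Its soluble partner Npc2 had 301 CPM in KO cells and 155 CPM in WT cells, a ratio of 1.94 (1.89 to 1.99). The other soluble protein, Grn, is the precursor of the granulins and stood at 203 CPM in KO cells and 72.8 CPM in WT cells, a ratio of 2.79 (2.6999 to 2.89).

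Each of the 6 lineage classes showed the pattern, in different strength. Nephron progenitors, which express Six2 itself, had the least: 13 of 45 genes were higher and 0 lower (background 4.3% higher and 4.31% lower), with a median log2 ratio of 0.44. In the early nephron 25 of 48 were higher and 1 lower (background 4.35% and 5.03%; median 0.59). In podocytes 26 of 45 were higher and 1 lower (8.94% and 6.15%; median 0.87). The proximal tubule had 21 of 48 higher and 1 lower (10.9% and 10.3%; median 0.53). In the loop of Henle 29 of 48 were higher and 1 lower (10.4% and 14.1%; median 0.63), and in the distal tubule 26 of 45 were higher and 1 lower (10.4% and 9.05%; median 0.69). Differences between classes were not tested, and the classes differ in depth and cell number.

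The loop of Henle cells of the 2 libraries were not alike. At a finer clustering (resolution 2) they fell into 1 cluster with 174 KO cells and 1 WT cell, led by Umod and Ptger3, and 1 with 27 KO and 145 WT cells, led by Slc12a1. Within the second cluster alone, 17 of 44 genes were higher and 2 lower (background 12.9% higher and 11.4% lower), with a median log2 ratio of 0.43. There Dpp7 rested on 32 KO and 37 WT UMIs and Arsa on 23 KO and 59 WT UMIs, and Ctsh had a ratio of 0.606. This split was added after seeing the data.

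Summed over the 50 genes, the share of nuclear-encoded UMIs in podocytes was 0.724% in KO and 0.347% in WT, a ratio of 2.09. In the proximal tubule, the richest lineage class, it was 1.21% in KO and 0.812% in WT, a ratio of 1.49. The ratio was 1.43 in progenitors, 1.66 in early nephron, 1.73 in the loop of Henle and 1.81 in the distal tubule. Outside the lineage it lay between 0.844 (immune) and 1.11 (ureteric bud and collecting duct). Immune cells, the richest class of all, had 1.55% in KO and 1.83% in WT.

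Only 3 genes, Hexa, Dpp7 and Npc2, were higher in all 6 lineage classes. Another 14 were higher in 5 classes, and 11 in 0, with no count over all genes to set beside these numbers. Those 11 include Ctss and Ctsk, which no lineage class held above the minimum, and the proteases Ctsf and Ctsh, the fucosidase Fuca1, the sulfatases Galns, Ids and Sgsh, Ppt1, Gm2a and Acp2. In progenitors the highest gene by its interval was Npc2, with 1229 UMIs (180 CPM) in KO and 815 UMIs (87.5 CPM) in WT, a ratio of 2.05 (1.88 to 2.24). Hexa there was 2.08 (1.78 to 2.43), Dpp7 2.15 (1.55 to 2.99), the tetraspanin Cd63 1.66, Lamp2 1.54 and the cysteine protease Ctsl 1.52. Arsa was not higher in progenitors (0.921).

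Ratios of Hexa over the other classes were 3.996 (3.47 to 4.62) in early nephron, 8.81 (7.38 to 10.6) in podocytes, 6.68 (6.23 to 7.17) in proximal tubule, 8.65 (7.48 to 10.1) in loop of Henle and 9.89 (7.82 to 12.7) in distal tubule. The intervals of podocytes, loop of Henle and distal tubule overlap. Dpp7 had 434 UMIs (37.9 CPM) in the KO loop of Henle and 38 UMIs (4.41 CPM) in the WT loop, a ratio of 8.59 (6.16 to 12.3). In the other lineage classes its ratio lay between 2.15 and 3.95. Arsa was also highest in the loop of Henle, with 385 KO and 59 WT UMIs and a ratio of 4.91 (3.73 to 6.57). Each of these loop ratios was lower within the cluster that both libraries filled (5.34 for Hexa, 5.45 for Dpp7 and 2.45 for Arsa).

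The class with the highest ratio differed from gene to gene. Cd63 had 802 CPM in KO podocytes and 191 CPM in WT podocytes, a ratio of 4.19 (3.90 to 4.51), while in the proximal tubule, its lowest lineage class, the ratio was 1.19. Podocytes also had Grn at 3.12, Asah1 at 2.60 and Ctsd at 2.47. Psap reached 853 CPM in KO and 289 CPM in WT proximal tubule cells, a ratio of 2.95 (2.86 to 3.04). Neu1 was among the highest genes of early nephron (2.21), loop of Henle (2.23) and distal tubule (2.71), and Scarb2 reached 2.96 (2.11 to 4.18) in the distal tubule. Tpp1, a tripeptidyl peptidase, was at 1.96 in early nephron. In the loop of Henle Grn was at 2.69 and Lamp1 at 2.24. At the lower end of the classes, Gm2a was at 0.722 and Scpep1 at 0.930 in the proximal tubule. Gm2a was at 0.787 in the distal tubule, Galns at 0.853 and Pla2g15 at 0.797 in early nephron, Ids at 0.733 and Fuca1 at 0.901 in progenitors, Ids at 0.808 in podocytes and Sgsh at 0.874 in the loop of Henle, each with an interval that included 1.

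Cd68, a heavily glycosylated membrane protein best known from macrophages, was the most divided gene. It was called higher in 2 lineage classes and lower in 3. The higher ones were the proximal tubule and the loop of Henle, the latter with 7.42 CPM in KO and 4.87 CPM in WT. In the proximal tubule it had 404 UMIs (21.1 CPM) in KO cells and 111 UMIs (5.34 CPM) in WT cells, a ratio of 3.96 (3.20 to 4.93). In the early nephron it had 82 UMIs (7.05 CPM) in KO and 208 UMIs (12.1 CPM) in WT cells, a ratio of 0.582 (0.445 to 0.755). The ratios in podocytes (0.645), distal tubule (0.628) and progenitors (0.791) were below 1 with intervals that included 1, from 20 KO UMIs in podocytes and 16 in the distal tubule. The 10 immune markers, 8 of them at a higher level in KO, summed to 59.5 CPM in KO and 62.5 CPM in WT proximal tubule cells. In the early nephron 5 of the 10 were at a higher level in KO, and they summed to 19.96 CPM in KO and 22.0 CPM in WT cells. Their part in the Cd68 values was not tested.

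Markers of other cells and of the classes themselves were read beside these results. In the pooled lineage the 10 immune markers, 8 of them at a higher level in KO, summed to 34.3 CPM in KO and 35.0 CPM in WT cells, with 0 markers at 0 in either. In the loop of Henle they summed to 21.2 CPM in KO and 33.5 CPM in WT, and in podocytes to 34.7 CPM in KO and 29.9 CPM in WT. In the distal tubule they summed to 48.1 CPM in KO and 28.6 CPM in WT, and the 5 neutrophil markers to 294 CPM in KO and 2.78 CPM in WT. The neutrophil class itself, with 70 KO and 19 WT cells, had 0.304% of UMIs in the 50 genes in KO and 0.331% in WT. The part of neutrophil RNA in the distal tubule values was not tested. Podocyte markers summed to 1114 CPM in KO and 380 CPM in WT loop of Henle cells, and to 1346 CPM in KO and 262 CPM in WT distal cells. Magi2 made up 1096 CPM in KO and 330 CPM in WT of the loop sum, and 1316 CPM in KO and 185 CPM in WT of the distal sum. The podocyte-defining Nphs1 was at 0.175 CPM in KO and 0.580 CPM in WT loop cells, and at 0.407 CPM in KO and 2.03 CPM in WT distal cells. The KO distal cells were also deeper, at a median of 38648 UMIs, against 16023 in WT.

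The classes' own markers were lower in KO in 3 of the mature classes. Proximal markers summed to 11813 CPM in KO and 18281 CPM in WT proximal cells, podocyte markers to 30319 CPM in KO and 43446 CPM in WT podocytes, and distal markers to 1290 CPM in KO and 2632 CPM in WT distal cells. Loop of Henle markers were 9315 CPM in KO and 9827 CPM in WT. The part of these marker levels in the lysosomal ratios was not tested. The proximal class was made of 3 clusters that the libraries filled unevenly, with 64, 124 and 193 KO cells and 240, 139 and 71 WT cells. Within them the median log2 ratio of the lysosomal genes was 0.38, 0.44 and 0.35, against 0.53 in the class. The last of these clusters also had Havcr1, a marker of injured proximal tubule, at 210 CPM in KO and 9.38 CPM in WT.

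**Figure D2:**
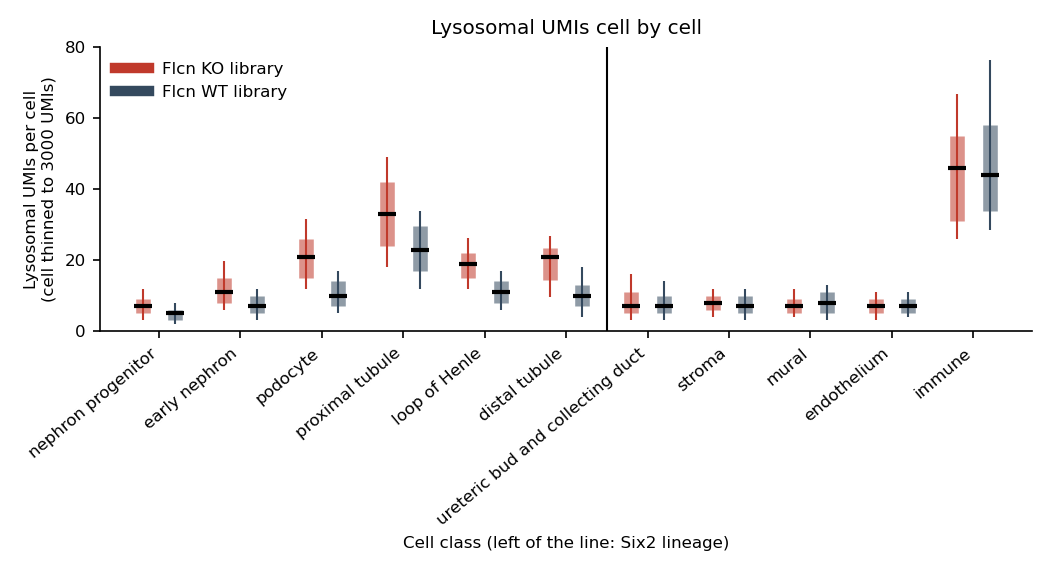
UMIs of the 50 genes per cell after thinning each cell to 3000 UMIs, by class, KO (red) left of WT (dark). Black bars are medians over cells, boxes the middle of the cells between the quartiles, and lines the span between the 10th and 90th percentiles. KO medians lie above WT medians in the 6 classes left of the line, from 7 in KO and 5 in WT progenitors to 21 in KO and 10 in WT in podocytes and in the distal tubule.

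Cell by cell, the KO distributions lay higher at the 10th percentile, the quartiles and the 90th percentile in every lineage class. At an equal depth of 3000 UMIs, the median podocyte held 21 lysosomal UMIs in KO and 10 in WT. The lower tail moved too, and the 10th percentile of KO podocytes, 12, lay above the WT median. In the loop of Henle the median was 19 UMIs in KO and 11 in WT, and the 10th percentile of KO cells was again 12. Proximal tubule cells had medians of 33 in KO and 23 in WT, early nephron cells 11 in KO and 7 in WT, and distal cells 21 in KO and 10 in WT. The 90th percentile of WT cells was exceeded by 61.4% of KO podocytes, 57.3% of KO loop cells and 57.4% of KO distal cells, against 6.28%, 8.72% and 10.0% of the WT cells. In stroma it was exceeded by 7.40% of KO and 8.73% of WT cells. In the ureteric bud and collecting duct it was exceeded by 14.8% of KO and 8.15% of WT cells. The KO share was the lower one in mural cells (4.49%, against 9.63% in WT), endothelium (6.35% and 8.84%) and immune cells (4.27% and 10.2%). Thinning left out 13 KO and 31 WT distal cells as too shallow, and between 0 and 10 cells per library in the other lineage classes. Cells of 1 library are not replicates, so these shares describe 2 libraries.

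In the 5 classes outside the lineage, 0 to 4 genes passed the limit in either direction. In the ureteric bud and collecting duct 1 of 45 genes was higher (Mcoln1, 1.51, interval including 1) and 0 lower, against a background of 3.71% and 3.33%. In stroma 0 of 49 were higher and 0 lower (4.82% and 3.25%). In mural cells 1 of 39 was higher (Acp2, 1.71) and 2 lower (Ctsh, and Ctsc at 0.586; background 5.18% and 5.35%). In endothelium 1 of 49 was higher (Ctsc, 1.51, interval including 1) and 0 lower (3.63% and 2.64%). Immune cells had 0 of 40 higher and 4 lower (7.18% and 8.25%), with a median log2 ratio of -0.24. The 4 were the lipases Pla2g15 (0.425) and Lipa (0.528), Gm2a (0.552) and Scarb2. The immune class rested on 126 KO and 53 WT cells. Intercalated cells were not among these classes, the lineage classes or either pool, and numbered 14 in KO and 42 in WT. Whether they descend from the Six2 lineage was not determined here. In them 5 of 38 genes were higher and 2 lower (background 8.1% and 6.23%), with a median log2 ratio of 0.23.

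Genes were ranked within the 5 classes by the bound of the interval nearest to 1. In stroma the mannosidase Manba (1.47), Ctsf (1.33) and Lgmn (1.25) stood at the upper end, and Ctsk (0.832), Ctsc (0.727) and Gaa (0.879) at the lower. The ureteric bud had Cd63 and Ctsd (both 1.26) after Grn at the upper end, and Gm2a (0.707), Scpep1 (0.858) and Ctsz (0.896) at the lower. In endothelium the sphingomyelinase Smpd1 (1.29) was highest by its interval, and Ctsh, Lamp1 (0.882) and Ctsd (0.879) were lowest. Lamp2 was at 0.846 in mural cells, and Ctsl at 1.13 in immune cells.

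Within the pooled outside classes the highest ratios were those of Ctss (1.496, 1.38 to 1.63), Ctsc (1.38) and Acp2 (1.23), and the lowest were Gm2a, Ctsh and Gaa (0.834). Ctss had 29.4 CPM in KO and 19.6 CPM in WT, but in immune cells alone its ratio was below 1. The immune markers of these pooled classes summed to 508 CPM in KO and 307 CPM in WT, which moves in the same direction as Ctss and Ctsc, and their part in it was not tested. The ureteric bud had a median log2 ratio of 0.15, the highest of the 5 pooled classes, and its leading gene was Grn, with 82.3 CPM in KO and 58.1 CPM in WT (1.42, 1.23 to 1.63).

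Immune cells had the highest level of 23 of the 50 genes in the KO library and of 27 in the WT library, and the proximal tubule that of 12 in KO and 14 in WT. Podocytes had the highest level of 6 genes in KO and 1 in WT. Within the glycosidases, Hexa had the highest level in 7 of the 11 classes in KO, including all 6 of the lineage, and in 1 of 11 in WT, the immune class. In WT the leading glycosidase was Fuca1 in 6 classes, Manba in 2, and Glb1 and Neu1 in 1 each. Other groups were led as follows. Ctsl led the proteases in 9 classes of each library, and Psap the lipid group in 11 of KO and 10 of WT. Cd63 led the membrane proteins in 9 of KO and 8 of WT, Npc2 led the soluble pair in 9 of KO and 11 of WT, and Arsb led the sulfatases in 7 of KO and 8 of WT. In immune cells the leading protease and lipid activator were the dipeptidyl peptidase Ctsc, with 2269 CPM in KO and 2490 CPM in WT, and Psap, with 965 CPM in KO and 1265 CPM in WT.

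Other genes of the pathway were read from lists. Of 38 further lysosomal genes, 13 were higher in the Six2 lineage and 0 lower (background 6.56% and 9.93%), with a median log2 ratio of 0.38. The mannosidase Man2b2 had 883 KO and 272 WT UMIs (ratio 3.87, 3.37 to 4.44) and the fucosidase Fuca2 had 173 CPM in KO and 69.8 CPM in WT (2.48, 2.40 to 2.57). Glmp (1.87) and Clcn7 (1.91), the chloride-proton exchanger of lysosomes, followed. At the other end were the hyaluronidase Hyal1 (0.731, 0.597 to 0.892), Cpq (0.919, 0.887 to 0.952) and Arsg (0.931, interval including 1). Fuca2 was the only one of the 38 called lower outside the lineage, at 0.640, and 0 were higher there. The background there was 7.93% lower and 5.23% higher.

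Of 15 ubiquitous subunits of the vacuolar ATPase, the proton pump that acidifies the lysosome, 8 were higher in the lineage (background 6.56%). All 15 had ratios above 1, and the median log2 ratio was 0.65. Outside the lineage 0 were higher, near the share of all genes tested there, 5.23%, and the median was -0.02. Genes of mannose phosphate sorting, which tags and carries hydrolases to the lysosome, were read together with Sort1 and Sumf1. Of these 7 genes, 0 were higher. This is near the share of all genes tested in the lineage, 6.56%. All 7 had ratios above 1, 5 of them with intervals above 1, and the median was 0.29. Of 24 genes of the endoplasmic reticulum and Golgi, 0 were higher and 0 lower (background 6.56% and 9.93%), with a median of -0.03.

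E-boxes were counted in the promoters of 44 of the 50 genes, the number found in the RefSeq table. CACGTG, which reads the same on both strands, was present in 15 of the 44 (34.1%) and in 8.09% of all 27025 genes with a promoter there. TCACGTG on either strand, which contains it, was present in 13 (29.5%, against 4.29% of all genes), and the palindrome TCACGTGA in 6 (13.6%, against 1.12%). The 15 genes with CACGTG had a median log2 ratio of 0.74 in the Six2 lineage, and the 28 tested genes without it 0.54. Hexa, Grn, Psap and Npc2 had no CACGTG in this window, which says only that these letters are not within it. Over all tested genes with a promoter, 9.53% of 1396 with CACGTG were higher in KO, and 6.30% of 11116 without it. For TCACGTG the shares were 10.2% of 824 with it and 6.41% of 11688 without it. For the palindrome TCACGTGA they were close, at 7.02% of 242 with it and 6.65% of 12270 without it. These are counts of letters, and no binding was measured.

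**Figure D3:**
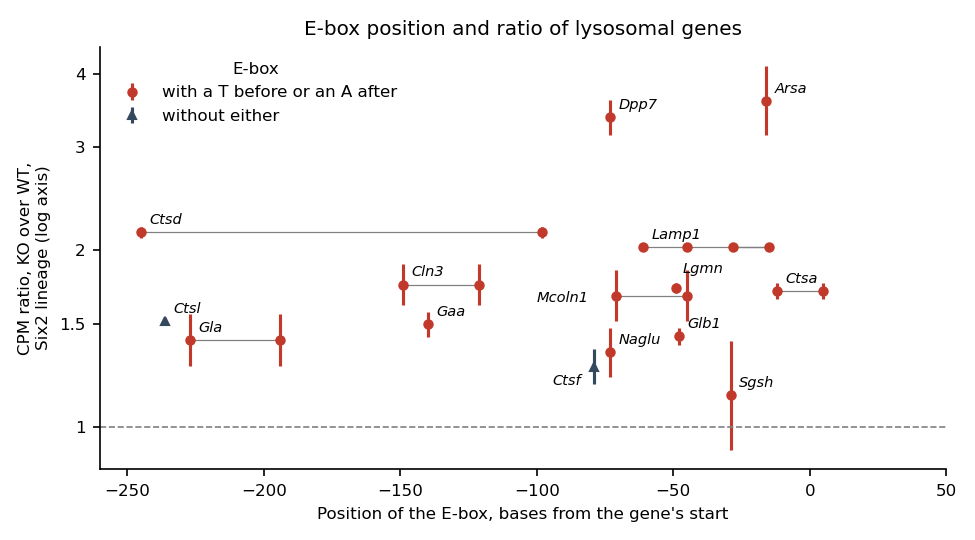
Position of each CACGTG in the promoters of 15 lysosomal genes, in bases from the gene's start (across), against the CPM ratio, KO over WT, in the Six2 lineage (up, log axis, with 95% counting intervals). Circles mark an E-box with T before or A after it and triangles one with neither, and grey lines join copies in the same promoter. Dpp7 and Arsa have the highest ratios, with 1 copy each, and Lamp1 has 4 copies.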

How the data were processed

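Single-cell RNA-seq was made from 1 Flcn KO and 1 Flcn WT kidney library with a droplet kit that reads 3′ ends, per the labels' protocols. The deposited matrices hold raw UMI counts per gene and barcode. They were made with Cell Ranger 7.1.0 (KO) and 7.0.0 (WT), per the file headers, and with bcl2fastq 2.20.0, STAR 2.7.2a and build mm10, per the submitters' processing notes. The Cell Ranger version thus differs between the groups. The gene annotation, and whether intronic reads were counted, is not given in the sources used here.

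Barcodes were kept with at least 1000 UMIs, 500 genes and at most 20% mitochondrial UMIs (5040 KO, 4187 WT). Scrublet's own threshold marked 2 KO and 3 WT barcodes, too few to be a working call, so the highest scores were removed instead, at 0.8% per 1000 called barcodes (242 KO, 187 WT). Cells were clustered with scanpy 1.11.5 on 2000 variable genes without the 50 lysosomal genes (40 components, 20 neighbours, Leiden resolution 1). Clusters were named from marker lists where the mean score reached 0.35 and led the next list by 0.05, with at least 3 markers detected and no other list better represented among the leading genes. UMIs were summed per class and library and divided by nuclear-encoded UMIs (CPM). Ratios have exact conditional 95% intervals, log2 ratios have 0.5 UMIs added, and genes needed 50 UMIs over both libraries. The calculation was checked on simulated counts. No test across samples was possible with single libraries, and edgeR 4.0.16 and DESeq2 1.42.0 served only for alternative scalings.

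Genes are named by rank of the end of the interval closer to 1: in the pooled lineage the top 12 (interval above 1) and up to 6 with a ratio below 1, per lineage class 6 and 3, per outside class and their pool 3 and 3, the leading gene of each enzyme class, and of the other lysosomal genes 5 and 3. Of the other lysosomal genes, 1 that the rule picks is not reported here. Other genes named beside a count were chosen after their values were seen. The members and lists were chosen with earlier results of these data known.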

Additional observations from a re-analysis of the deposited data

Results flagged for a closer look

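Some genes moved in opposite directions in different classes, and in none of these cases was the difference between the classes tested. Ctsd had a KO over WT ratio of 2.15 in the Six2 lineage and 0.891 in the classes outside it. Tpp1 had 1.67 in the lineage and 0.918 outside it, and Asah1 had 1.89 in the lineage and 0.883 outside it. Within the lineage, Cd68 had a ratio of 3.96 in the proximal tubule and 0.582 in the early nephron.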

How the results depend on the processing

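The median log2 ratios of the 6 lineage classes and of both pools, both pooled counts of genes called higher and the ratios of 14 genes in the pooled lineage were recomputed with 1 choice changed at a time: the mitochondrial limit (10%), doublets kept, Leiden resolution 0.5 and 2, the 50 genes kept for clustering, TMM and median of ratios scaling, a mean over cells, cells thinned to 3000 UMIs, minimums of 10, 200 and 1 UMI, classes weighted equally and, chosen after seeing the data, unnamed clusters given to the lineage class they scored highest for, and resolution 2 without clusters held to 90% by 1 library. Other values were computed once. The median log2 ratio in the Six2 lineage stayed above 0 under each, between 0.40 (thinned cells) and 0.64, and the number of genes called higher lay between 17 (thinned) and 30 (10% mitochondrial limit). In the loop of Henle the median was 0.43 at resolution 2 without its cluster of mostly KO cells, and 0.77 at resolution 0.5, at which no cluster was named distal tubule. Outside the lineage the median was -0.037 with classes weighted equally. There 1 gene in place of 0 was called higher with doublets kept, at resolution 2 with and without that cluster and under both scalings. The same count was found with thinned cells and with equal weights. In the main setting Ctss stood just under the limit outside the lineage, at 1.496, and both scalings raised that pool by 0.013 on the log2 scale. The cause was not tested. Both scalings shifted the lineage by at most 0.06 on the log2 scale. Of these 14 genes none changed direction. Hexa lay between 5.29 and 6.83 and Psap between 1.69 and 2.56. Ctsb was at 1.454 with equal weights and Ctsa at 1.450 in thinned cells, both under the limit. Ctsh lay between 0.525 and 0.865, and was not past the limit with equal weights or, at 0.726, at resolution 2 without that cluster, and Gm2a between 0.708 and 0.985. At resolution 1 no cluster was held to 90% by 1 library, so leaving such clusters out changed nothing there. No paired analysis was possible because each group has 1 library. For the same reason no library could be left out.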
